A study of Mus musculus with 12 samples.

Results

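Neurospheres that the labels derive from mouse adult fibroblasts were compared with pluripotent cells on Affymetrix gene expression arrays. The comparison rests on 4 of the 12 arrays of the series, chosen by their labels: 2 arrays of adult fibroblast-derived neurospheres and 2 of pluripotent cells. Of the adult-derived pair, 1 array came from spheres grown with EGF and cAMP and 1 from spheres grown with leukaemia inhibitory factor (LIF), both in a medium named MHM. Their strain is given as C57BL/6, and their source as adult skin fibroblasts in the label of the lone fibroblast array. The pluripotent pair held the induced pluripotent stem (iPS) cell line 38C2 and the embryonic stem (ES) cell line EB3 under standard conditions. The labels of this pair give no strain. A further pair of neurospheres came from embryonic fibroblasts, 1 array with LIF and 1 with LIF and cAMP, and was used in a 2nd comparison. The labels name no transgene and no conversion method for any of them, although the series title speaks of direct induction. They do not state repeat cultures, so p-values measure only the spread between arrays that also differ in medium or line. A lone array of embryonic neurospheres labelled GE (ganglionic eminence) and the lone fibroblast array served as references. No difference from either was tested.

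Pluripotent cells are held by a network of transcription factors around Oct4, Sox2 and Nanog, which keeps differentiation genes off. In their naive state, which LIF supports through STAT3, further factors such as Klf4, Esrrb and Zfp42 are also expressed. Neural stem cells of the forebrain keep Sox2 and switch the rest of the network off. They express factors such as Olig2, Pax6 and the nuclear factor I family, the intermediate filaments nestin and vimentin, and the lipid carrier Fabp7, and they grow as floating neurospheres with EGF. Skin fibroblasts are mesenchymal cells that secrete collagen and carry the Hox code of their body site.

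Values are deposited MAS5 signals on a linear scale, scaled to a trimmed mean of 100 on every array. Each difference, given with its standard error, is one of log2(signal + 5), a scale that makes changes of dim genes look smaller than they are. Differences are adult fibroblast-derived neurospheres minus pluripotent cells unless another pair is named. Signals of a pair are written with the EGF and cAMP array before the LIF array, and with the iPS array before the ES array. A call is an adjusted p under 0.05 in the limma fit over all genes. Each call was repeated with 1 of the 4 arrays left out. Counts from these leave-one-out fits are listed in the order EGF and cAMP, LIF, iPS and ES array left out, and a call that passed in all 4 of them is said to have held. Between 40.5% and 49.1% of the probe sets reached a signal of 20 on an array of the series, and the adult-derived arrays, at 46.2% and 45.4%, were above both pluripotent arrays, at 42.6% and 40.5%. The part of that difference in the counts of higher genes below was not tested. The 3′ to 5′ ratio of control probe sets for Actb was 1.45 and 1.35 in the neurospheres, against 1.39 and 1.33 in pluripotent cells.

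Of 13650 genes tested, 2926 (21.4%) were called. Of these, 2051 (15.0%) were higher and 875 (6.41%) lower in the adult fibroblast-derived neurospheres. The median difference of all genes was 0.14. It was 0.00 after quantile normalization and -0.26 after setting all arrays to a common median, a shift of -0.40. The share of higher calls was 70.1% as deposited, 62.8% after quantile normalization (1573 higher and 931 lower) and 36.4% with a common median (1322 and 2313). Leaving out 1 array gave 1262, 1256, 2946 and 1483 calls. The sides did not overlap in any called gene, nor in 8397 (61.5%) of all genes tested, so with 2 arrays a side the lack of overlap is the usual case. Of these calls, 746 of the 2051 higher genes were under a signal of 20 on both pluripotent arrays, and 131 of the 875 lower genes were under 20 on both adult-derived arrays. At least 100 on both arrays of 1 side and under 20 on both of the other were 117 genes in the neurospheres and 9 in the pluripotent cells. Of the 117, 59 were at 100 or more on the adult fibroblast array and 42 were under 20 there. Of these 42, 5 reached 100 on the array of embryonic neurospheres labelled GE (ganglionic eminence, where forebrain interneurons are born), and 30 were under 20 on it too.

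The 10 highest called genes were far brighter in the neurospheres. Hbb-y, an embryonic beta-type globin, had a signal of 5046 and 1102 in adult-derived neurospheres and 3.3 and 0.1 in pluripotent cells (difference 8.51 ± 0.82, adjusted p = 0.000743). Mal, a myelin and lymphocyte raft protein, had 1190.1 and 966 against 0.6 and 0.9 (7.55 ± 0.36). Both adult-derived arrays were far above both pluripotent arrays, which were near 0. The chloride channel Ano1 had 2914 and 1407 against 6.7 and 11.2 (7.2 ± 0.89), and tissue kallikrein Klk1 had 3384 and 5517 against 34.3 and 27.2 (6.93 ± 0.33). The matrix protein Sbspon (7.89 ± 0.48), the aldehyde dehydrogenase Aldh3a1 (6.73 ± 0.73), the metal ion importer Slc39a8 (6.70 ± 0.49) and the actin-severing protein gelsolin, Gsn (6.68 ± 0.77), were also among them. So was the forkhead factor Foxd1, whose call was lost without the ES array (adjusted p = 0.0503), and Mycn, treated below. On the fibroblast array Gsn had 4169 and Slc39a8 96, while Hbb-y, Mal, Ano1, Klk1, Sbspon, Aldh3a1 and Foxd1 had between 0.1 and 2.6. The other calls held.

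The 10 lowest called genes were bright in both pluripotent lines. Ccnb1ip1, a meiotic crossover factor, had 3.2 and 4.2 in adult-derived neurospheres and 362 and 642 in pluripotent cells (-5.81 ± 0.71, adjusted p = 0.00158). Triml1, a tripartite motif protein, had 0.7 and 12.1 against 452 and 314 (-5.27 ± 0.67). These 2 calls held. The amino acid transporter Slc38a4 (-5.70 ± 1.22), the fusion peptide Mymx (-5.38 ± 1.1), the AKT cofactor Tcl1 (-4.30 ± 0.99) and the zinc finger gene Zfp979 (-4.24 ± 1.07) lost their calls without the EGF and cAMP array (adjusted p of 0.0805, 0.0772, 0.105 and 0.138) or the ES array (0.0581, 0.0589, 0.0926 and 0.124). For all 4 the LIF array was above the EGF and cAMP array, with signals up to 90.2 for Zfp979. Rbmxl2, a testis RNA-binding protein (-4.35 ± 1.11), Trim6, a ubiquitin ligase (-4.27 ± 1.31), and Zfp936 (-4.36 ± 1.34) passed in 1, 1 and 0 of the 4 leave-one-out fits, with adjusted p of up to 0.144, 0.252 and 0.229 without the EGF and cAMP array. Zfp42, the lowest of all, is described with the pluripotency factors.

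**Figure D1:**
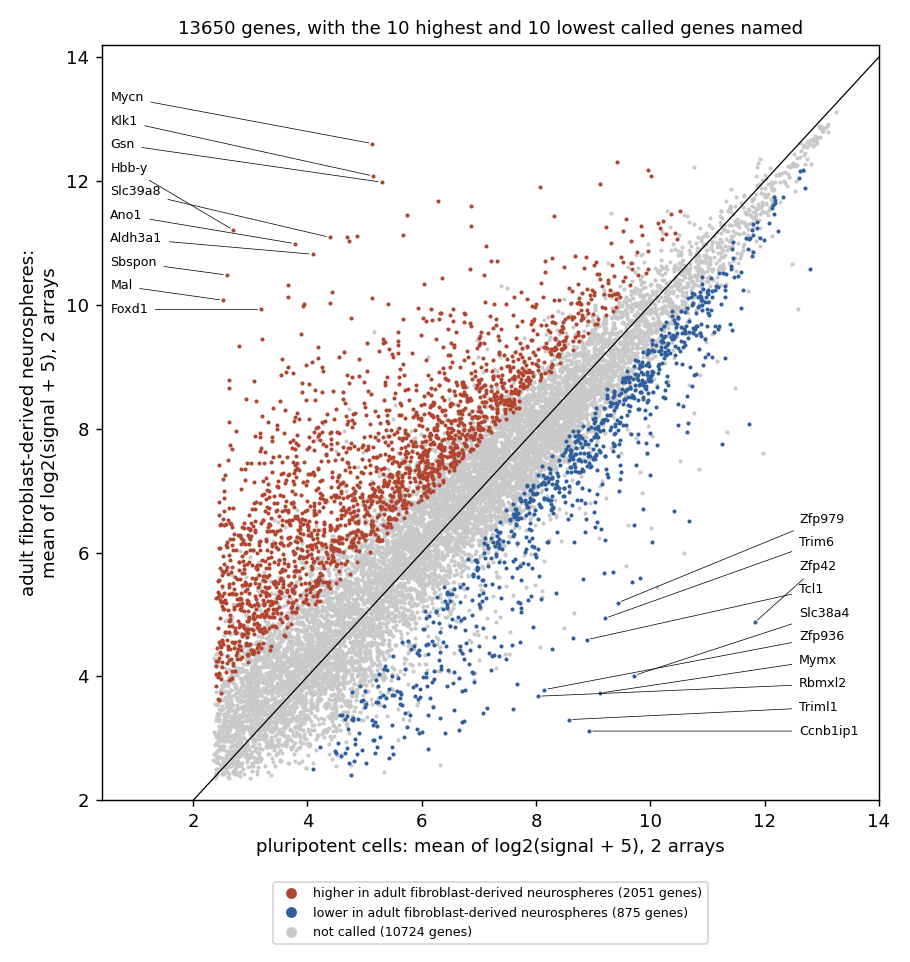
Mean log2(signal + 5) of each of 13650 genes in adult fibroblast-derived neurospheres (vertical axis) against pluripotent cells (horizontal axis), 2 arrays each, with the line of equal means. Genes called higher (2051) lie above the line and genes called lower (875) below it, and the named genes are the 10 highest and 10 lowest calls.

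Of 19 core and naive pluripotency transcription factors tested, 10 (52.6%) were called lower, against 6.41% of all genes, and 0 higher. The other 9, Oct4 and Nanog among them, were not called, and the median difference was -2.50 against 0.14 for all genes. The leave-one-out counts of lower members were 3, 4, 5 and 3, and the counts under quantile and common median scaling were 9 and 10. Pou5f1, which encodes Oct4, had 1787 and 2069 in adult-derived neurospheres and 2818 and 2462 in pluripotent cells (-0.45 ± 1.66, adjusted p = 0.871), against 1.3 on the fibroblast array. The sides did not overlap, but the standard error was larger than the difference. That error rests on the spread within every group of the series that has 2 arrays. Zfp42, which encodes the naive marker Rex1, had 5.2 and 79.1 in adult-derived neurospheres and 3058 and 4299 in pluripotent cells (-6.95 ± 1.79, adjusted p = 0.0276). The adult-derived arrays themselves differed widely for Zfp42, and its call was lost without any of the arrays (adjusted p of 0.147, 0.0502, 0.0675 and 0.108). Klf4, a naive and reprogramming factor, had 131 and 339.7 against 3824 and 1562 (-3.50 ± 0.62, adjusted p = 0.00685) and held. Both adult-derived arrays were below the fibroblast array, at 999. A 2nd Klf4 probe set had 569 and 584 against 1587 and 493.6 (-0.62 ± 0.48, adjusted p = 0.403, in a fit of every probe set), so the sides overlapped on it.

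Esrrb, an orphan nuclear receptor of the naive network, had 24.5 and 67.2 in adult-derived neurospheres and 871 and 754 in pluripotent cells (-4.14 ± 0.75, adjusted p = 0.00749). Its call was lost without the EGF and cAMP array (adjusted p = 0.0524). Sox2, shared by pluripotent and neural stem cells, had 85.6 and 791 against 3353 and 3418 (-3.66 ± 0.78, adjusted p = 0.0144) and lost its call without the ES array (0.0622). Both pluripotent arrays stood far above both adult-derived arrays, and the GE neurosphere array, at 3703, stood with the pluripotent ones. Gbx2, a LIF-responsive homeobox gene, had 65.9 and 36 against 227 and 249.6 (-2.17 ± 0.40, adjusted p = 0.00799) and lost its call without the LIF array (0.0533). Nanog had 145 and 402 against 2779 and 2389.6, a difference of -3.39 ± 1.79 that was not called (adjusted p = 0.21), although the sides did not overlap. With only the 4 arrays compared in the fit it was called lower (adjusted p = 0.0216). In 15 of the 19 factors the EGF and cAMP array was below the LIF array, against 6912 of all 13650 genes. This was so in 8 of the 10 factors called lower, against 492 of all 875 genes called lower. Of 27 other genes of pluripotent cells, 3 (11.1%) were called lower, against 6.41% of all genes, and 0 higher (median -1.88, leave-one-out counts 0, 3, 4 and 0, and 10 lower with a common median). Tet1, the methylcytosine oxidase, was 1 of these 3, with 446 and 489 against 1403 and 2259.5 (-1.92 ± 0.38). Its call was lost without the EGF and cAMP array (adjusted p = 0.06) or the ES array (0.0594). Of 13 primed pluripotency genes, 1 was called higher and 0 lower (leave-one-out counts 0, 0, 1 and 0), and their median of 0.25 turned to -0.12 and -0.15 under quantile and common median scaling. Fewer cells with a transcript and less of it per cell cannot be told apart in these bulk samples.

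**Figure D2:**
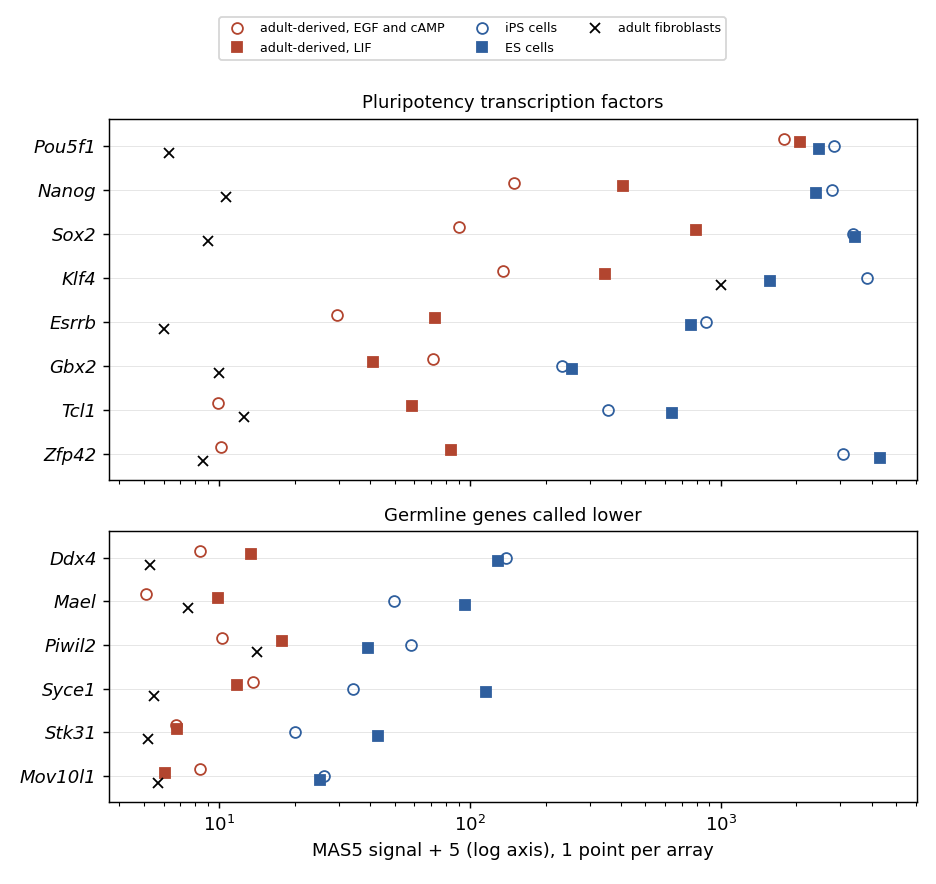
MAS5 signal plus 5 on a log axis for 8 pluripotency factors and the 6 germline genes called lower, with 1 point for each adult-derived, pluripotent and fibroblast array. The adult-derived points lie close to the pluripotent points for Pou5f1 and further to their left for the other genes, of which Nanog is the one not called.

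Germline genes, many of which somatic cells silence through promoter methylation, were dim, and some were lower in the neurospheres. Of 19 tested, 6 (31.6%) were called lower, against 6.41% of all genes, and 0 higher, with a median of -1.84. The leave-one-out counts were 1, 2, 7 and 1. The germ cell RNA helicase Ddx4 had 3.4 and 8.4 in adult-derived neurospheres and 134 and 124 in pluripotent cells (-3.66 ± 0.70, adjusted p = 0.00949). Both adult-derived arrays were under 20, and the call was lost without the EGF and cAMP array (adjusted p = 0.0599). Mael, which acts in piRNA silencing of transposons, had 0.1 and 4.9 against 44.7 and 90.6 (-3.28 ± 0.83), and its partner in that pathway Mov10l1 had 3.4 and 1.1 against 21.1 and 20.3 (-1.84 ± 0.38). Piwil2, a piRNA-binding Argonaute protein, had 5.3 and 12.8 against 53.1 and 34.1 (-1.82 ± 0.46), and the synaptonemal complex gene Syce1 had 8.6 and 6.8 against 29.1 and 110.4 (-2.31 ± 0.55). In each of these 4 the adult-derived arrays were under 20 and both pluripotent arrays above it. Mael and Syce1 passed in 1 leave-one-out fit, that without the iPS array, and had adjusted p of up to 0.131 and 0.097 in the others. Piwil2 passed in the fit without the LIF array alone, with adjusted p of up to 0.138 in the others. Mov10l1 lost its call without the LIF array (0.0669) or the ES array (0.0544). Stk31, a testis kinase named after its values were seen, had 1.7 and 1.8 against 15.1 and 37.8 (-2.12 ± 0.64) and passed in the fit without the iPS array alone (adjusted p of up to 0.22 in the others).

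The promoters of 5 of the 6 lower germline genes were in the RefSeq table of upstream sequences (mouse build GRCm38.p6). The 250 bases before the start were searched for the E-box CACGTG, the palindrome bound by MAX and its partners, which reads the same on both strands. It was present in 4 of these 5, in 6 of the 13 other tested germline genes in the table and in 9.73% of all 10957 tested genes there (6.86% of 27018 genes in the table). The 4 sequences are shown since they are the lower members with the motif, which is in capitals. For Stk31 the table gives 2 starts, and the window of the first is shown.
Ddx4 (chr13:112652311-112652560, minus strand): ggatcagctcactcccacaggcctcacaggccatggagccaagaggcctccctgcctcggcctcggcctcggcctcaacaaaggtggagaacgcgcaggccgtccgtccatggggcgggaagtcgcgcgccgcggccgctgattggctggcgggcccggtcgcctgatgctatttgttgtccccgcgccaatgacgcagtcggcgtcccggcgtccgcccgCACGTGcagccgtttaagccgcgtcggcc
Mael (chr1:166238745-166238994, minus strand): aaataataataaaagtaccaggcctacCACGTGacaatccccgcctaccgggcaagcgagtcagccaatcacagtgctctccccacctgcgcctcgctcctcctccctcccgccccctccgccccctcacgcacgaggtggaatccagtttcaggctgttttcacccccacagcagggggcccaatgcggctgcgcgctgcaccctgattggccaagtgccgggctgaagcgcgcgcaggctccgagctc
Mov10l1 (chr15:88982744-88982993, plus strand): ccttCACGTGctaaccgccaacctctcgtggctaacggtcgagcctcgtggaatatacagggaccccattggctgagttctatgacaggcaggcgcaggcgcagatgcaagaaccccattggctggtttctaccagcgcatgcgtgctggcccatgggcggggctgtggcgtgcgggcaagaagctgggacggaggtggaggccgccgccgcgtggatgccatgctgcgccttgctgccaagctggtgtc
Stk31 (chr6:49395289-49395538, plus strand): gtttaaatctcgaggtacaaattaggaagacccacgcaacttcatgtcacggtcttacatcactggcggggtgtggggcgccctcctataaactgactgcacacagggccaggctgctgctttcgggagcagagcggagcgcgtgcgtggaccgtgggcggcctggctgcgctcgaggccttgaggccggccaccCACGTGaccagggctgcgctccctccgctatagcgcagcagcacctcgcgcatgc
The motif lay 29 bases before the start in Ddx4, 55 in Stk31, 223 in Mael and 246 in Mov10l1. A match is a description of these letters and not a binding site, and the list was known to differ when the motif was chosen.

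Chromatin regulators were called higher at 18.2% to 20% in the 3 lists, near the 15.0% of all genes, while 25.9% of Polycomb subunits were called lower against 6.41%. Of 27 Polycomb subunits, 5 were called higher and 7 lower (leave-one-out counts 4, 3, 6 and 5 higher and 1, 3, 6 and 2 lower), with a median of -0.43, and 5 and 12 with a common median. Bmi1, a subunit of Polycomb repressive complex PRC1 needed for neural stem cell renewal, had 482 and 447 in adult-derived neurospheres and 66.1 and 32.8 in pluripotent cells (3.18 ± 0.36, adjusted p = 0.00122). The PRC1 subunits Phc2 (1.97 ± 0.33) and Phc3 (1.81 ± 0.33) were also higher, and all 3 held. Mtf2, a cofactor of PRC2 that is high in ES cells, had 462 and 583 against 1499 and 2478 (-1.88 ± 0.29, adjusted p = 0.00397) and held. Eed, a core PRC2 subunit, had 774 and 824 against 1816 and 3064 (-1.56 ± 0.29) and lost its call without the EGF and cAMP array (adjusted p = 0.0512). Both complexes had members on either side: the PRC1 subunit Cbx7 was lower (-3.01 ± 0.69) and the PRC2 cofactor Aebp2 higher (1.17 ± 0.23), 2 genes named after their values were seen. Cbx7 lost its call without the EGF and cAMP array (adjusted p = 0.104) or the ES array (0.0862), and Aebp2 without the LIF array (0.0676). Of 22 BAF remodelling subunits, 4 were called higher and 1 lower (1 and 4 with a common median). Their leave-one-out counts were 1, 1, 3 and 1 higher and 0, 0, 2 and 1 lower. The ATPase Smarca2 (BRM) had 368 and 505 in adult-derived neurospheres, 8.0 and 0.4 in pluripotent cells (5.70 ± 0.48, adjusted p = 0.000421) and 246 in fibroblasts. It held, and the pluripotent arrays showed next to no signal. Of 15 DNA methylation and demethylation enzymes, 3 were called higher and 2 lower (median -0.34, leave-one-out counts 1, 1, 3 and 1 higher and 0, 2, 1 and 0 lower), but 1 and 2 after quantile normalization and 1 and 3 with a common median. The de novo methyltransferase Dnmt3a had 226 and 192 against 127 and 85.6 (0.96 ± 0.29, adjusted p = 0.0461) and passed in the fit without the iPS array alone (adjusted p of up to 0.188 in the others). In the fit of every probe set, 2 further Dnmt3a probe sets were called lower (-2.56 ± 0.42 and -2.04 ± 0.46) and 1 higher (1.73 ± 0.34), and the mean of its probe sets was -0.52 and not called, so it has no settled direction. The methyl-CpG reader Mbd2 had 264 and 278 against 93.4 and 63.4 (1.75 ± 0.32, adjusted p = 0.00811) and held.

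Transcription factors of neural stem cells were called higher more often than all genes were. Of 24 tested, 12 were called higher and 1, Sox2, lower, with a median of 1.71. The leave-one-out counts of higher members were 7, 8, 10 and 7, and the counts under quantile and common median scaling 10 and 11. Nfix, of the nuclear factor I family that acts in neural stem cell quiescence and gliogenesis, had 1347 and 911 in adult-derived neurospheres and 13.5 and 3.6 in pluripotent cells (6.46 ± 0.52, adjusted p = 0.000349). Nfia had 203 and 182 against 8.7 and 1.6 (4.38 ± 0.42). On the fibroblast array Nfix stood at 2019 and Nfia at 97.9, and on the GE neurosphere array at 1556 and 661. Olig2, which specifies motor neuron and oligodendrocyte precursors, had 25.8 and 36.1 against 2.5 and 1.8 (2.32 ± 0.35, adjusted p = 0.00393), with 0.4 in fibroblasts and 1032 in GE neurospheres. Its relative Olig1 had 79.6 and 231 against 1.5 and 5.9 (4.07 ± 0.49), 0.9 and 3133. Rfx4, a factor of the developing neural tube, had 125 and 62.5 against 8.4 and 11.6 (2.65 ± 0.40), 0.5 and 1087. For these 3 both adult-derived arrays were above the pluripotent and fibroblast arrays and far below the GE array. All 5 calls held. Sox1, an early neuroectoderm factor, had 287 and 272 against 209.6 and 4.4 and was not called (2.66 ± 1.12, adjusted p = 0.124). The iPS array was near the neurospheres, and without it Sox1 was called higher (4.92, adjusted p = 0.000473). Pax6, a radial glia factor, had 31.6 and 29.7 against 34 and 50.1 (-0.38 ± 0.41, adjusted p = 0.544), with 248 in GE neurospheres, and the sides did not overlap.

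Of 28 membrane and filament genes of neural stem cells, 10 (35.7%) were called higher and 1 (3.57%) lower, against 15.0% and 6.41% of all genes (median 1.06, leave-one-out counts 7, 9, 12 and 7 higher and 0, 1, 0 and 0 lower). The lipid carrier Fabp7 had 411 and 518 in adult-derived neurospheres and 16.9 and 1.2 in pluripotent cells (5.32 ± 0.50, adjusted p = 0.000717), with 8.4 in fibroblasts and 7197 in GE neurospheres. The EGF receptor Egfr had 221 and 257 against 3.7 and 4.2 (4.77 ± 0.40), with 524 in fibroblasts. Nestin, Nes, had 201 and 156 against 40 and 8.3 (2.89 ± 0.49), with 34.9 in fibroblasts. Vimentin, Vim, had 4483 and 4129 against 989.8 and 1062 (2.06 ± 0.14), with 8627 in fibroblasts, the highest of these arrays. The proteoglycan Cspg4 (NG2) had 35.2 and 29.4 against 0.6 and 1.0 (2.68 ± 0.37). These 5 calls held, and the fibroblast array lay above both adult-derived arrays for Egfr and Vim and below both for Fabp7 and Nes. The glutamate transporter Slc1a3, a marker of radial glia, was the lower member, with 15 and 31.7 against 62.9 and 56.5 (-1.25 ± 0.36, adjusted p = 0.0388) and 2777 in GE neurospheres. It passed in the fit without the LIF array alone, with adjusted p of up to 0.201 in the others.

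Genes of the differentiated neural lineages were called higher at shares near the 15.0% of all genes (12.5% to 19% of a list), apart from oligodendrocyte genes at 26.3%. Of 21 radial glia and astrocyte genes, 4 were called higher and 1 lower (median 0.59, leave-one-out counts 6, 4, 5 and 4 higher and 0, 1, 1 and 0 lower). Acsbg1, an acyl-CoA synthetase of astrocytes, had 53 and 144 in adult-derived neurospheres and 0.6 and 0.9 in pluripotent cells (4.01 ± 0.44, adjusted p = 0.00106), Ttyh1 had 84.9 and 80.2 against 5.4 and 11.3 (2.75 ± 0.31) and the aldolase Aldoc 378 and 464 against 149.6 and 157 (1.42 ± 0.21). Gfap, the filament that defines astrocytes, had 0.2 and 0.2 against 0.2 and 2.1 and 514 in GE neurospheres, and was not called. Of 19 oligodendrocyte lineage genes, 5 were called higher and 0 lower (median 0.62, leave-one-out counts 5, 4, 4 and 4), among them Mal, Olig1, Olig2 and Cspg4. Of 33 neuronal genes, 6 were called higher and 2 lower, but 3 and 4 after quantile normalization and 2 and 5 with a common median, where their median of 0.34 became -0.06. The leave-one-out counts were 3, 3, 2 and 2 higher and 1, 2, 2 and 1 lower. Slc17a6, the vesicular glutamate transporter, had 100.4 and 246 against 5.0 and 0.6 (4.44 ± 0.77, adjusted p = 0.00648) and 0.3 in GE neurospheres. Doublecortin, Dcx, a marker of migrating neuroblasts, had 43.8 and 36.1 against 0.6 and 1.8 (2.86 ± 0.49). Of its other probe sets, 1 had 62.8 and 41.1 against 0.5 and 0.8, while another had 4.0 and 3.9 against 2.9 and 7.1, and the mean of its probe sets was not called. The neurofilament Nefh went the other way, with 14.5 and 12.4 against 71.9 and 163 (-2.63 ± 0.45). Of 23 proneural factors, 3 were called higher and 2 lower (leave-one-out counts 3, 2, 2 and 1 higher and 1, 1, 2 and 1 lower). Neurod1, a factor of neuronal differentiation, was lower in the neurospheres, at 5.2 and 40.9 against 366 and 257 (-3.85 ± 0.72, adjusted p = 0.00872), and Ebf3 higher, at 49.2 and 51.8 against 2.8 and 4.6 (2.68 ± 0.40). Of 24 Notch genes, 3 were called higher and 2 lower (median 0.63, leave-one-out counts 0, 1, 2 and 1 higher and 1, 1, 2 and 1 lower, and 1 and 1 after quantile normalization and 1 and 3 with a common median), and the Notch regulator Dtx1 had 32 and 59.1 against 203 and 170.3 (-1.97 ± 0.31). Among 19 neural crest genes 3 were called higher and 1 lower (leave-one-out counts 4, 2, 2 and 2 higher and 0, 3, 2 and 1 lower), the crest regulator Tfap2a having 209 and 379 against 10.7 and 12.1 (4.13 ± 0.59) and 17.9 in fibroblasts. All calls named here held.

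**Figure D3:**
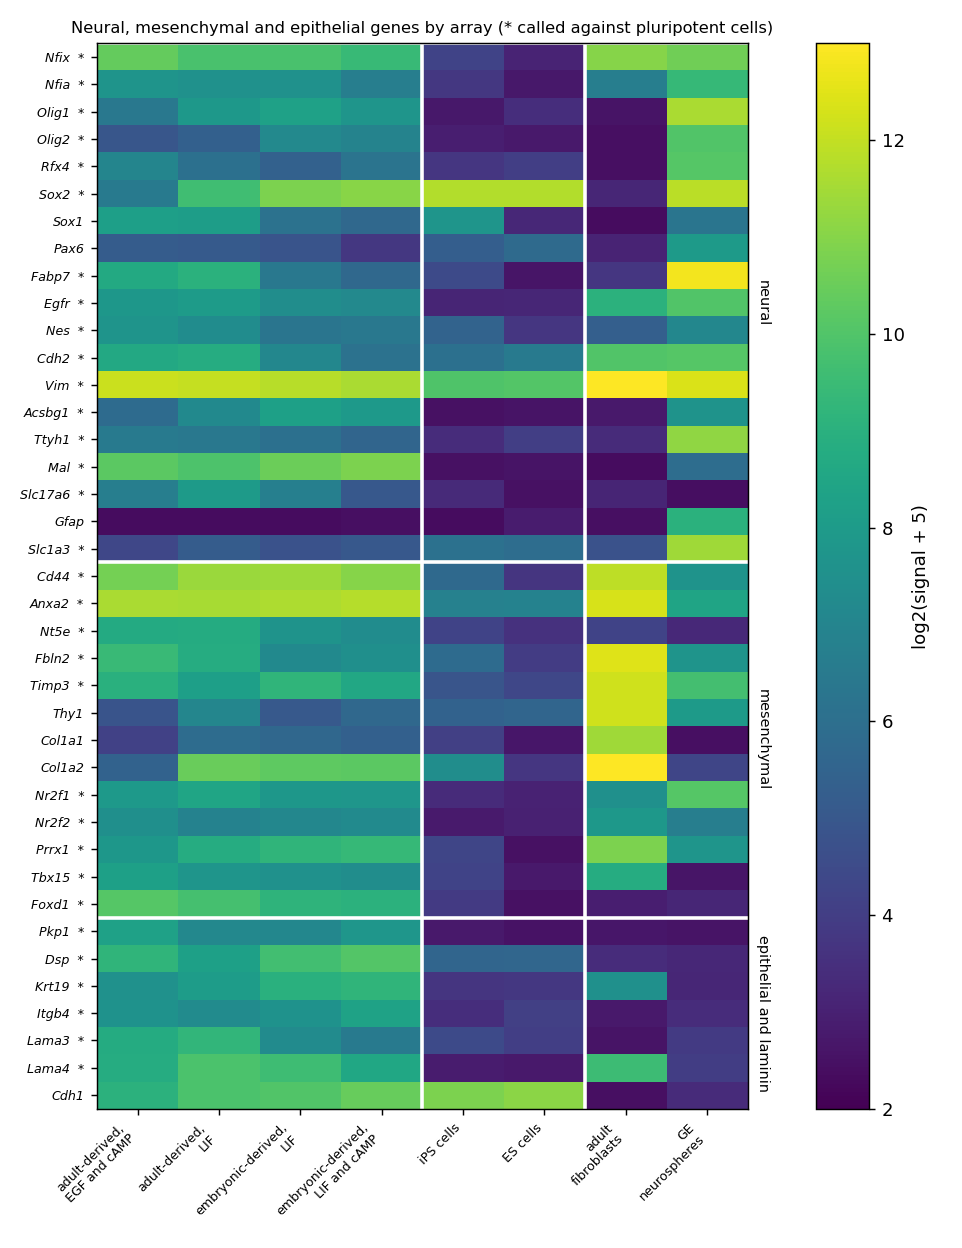
Heat map of log2(signal + 5) for neural, mesenchymal and epithelial genes (rows) on 8 arrays (columns), with adult-derived and embryonic-derived neurospheres to the left of the pluripotent cells, then adult fibroblasts and GE neurospheres. Asterisks mark genes called between adult-derived neurospheres and pluripotent cells, and the neural genes of the adult-derived arrays lie between the dark pluripotent and the bright GE columns in Olig1, Olig2, Rfx4, Fabp7 and Ttyh1.

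Fibroblast and mesenchymal genes were called higher more often than all genes were, although most members did not pass. Of 38 fibroblast surface and matrix genes, 15 were called higher and 0 lower (median 1.68, leave-one-out counts 15, 7, 14 and 8, and 15 and 13 under quantile and common median scaling). In 14 of the 15 the fibroblast array was above both adult-derived arrays, against 840 of all 2051 genes called higher. The hyaluronan receptor Cd44 had 1668 and 2592 in adult-derived neurospheres and 49.4 and 7.8 in pluripotent cells (6.30 ± 0.69, adjusted p = 0.00106), against 3865 in fibroblasts. Annexin A2, Anxa2, had 3094 and 3051 against 111 and 112 (4.73 ± 0.53), with 5149 in fibroblasts. The exception among the 15 was the ectonucleotidase Nt5e (CD73), at 416 and 425 against 13.5 and 7.0 (4.84 ± 0.46) and 13.6 in fibroblasts. The matrix protein Fbln2 had 698 and 439 against 52.5 and 10.7 (4.22 ± 0.55) and the metalloproteinase inhibitor Timp3 had 505 and 287 against 25.1 and 15.2 (3.97 ± 0.46). Both were brighter in the fibroblasts, at 5630.5 and 4663, and these 5 calls held. Defining fibroblast markers did not pass: Thy1 had 24.4 and 128 against 39.2 and 42.7 (0.45 ± 0.86), with 4690.0 in fibroblasts. Collagen I had 12.5 and 53.7 against 12 and 1.4 for Col1a1 (1.62 ± 1.21) and 39.5 and 1449 against 163 and 8.3 for Col1a2 (2.43 ± 1.83), with 2733 and 8334 in fibroblasts. In all 3 genes the LIF array was above the EGF and cAMP array, and the sides overlapped for Thy1 and Col1a2. Without the LIF array the differences of Thy1 and Col1a2 were -0.64 and -0.086. Of 27 collagens, 4 (14.8%, near the 15.0% of all genes) were called higher and 0 lower (median 0.91), with leave-one-out counts of 1, 0, 6 and 0.

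Of 28 mesenchymal transcription factors, 12 were called higher and 0 lower, with a median of 2.03, the highest among the lists. The leave-one-out counts were 9, 8, 12 and 7, and both other scalings gave 12. The orphan receptor Nr2f1 had 243 and 349 in adult-derived neurospheres and 5.2 and 3.4 in pluripotent cells (5.0 ± 0.29, adjusted p = 0.000115), and Nr2f2 had 174 and 111 against 2.0 and 3.1 (4.26 ± 0.40). In fibroblasts they stood at 180.3 and 229, and in GE neurospheres at 1082 and 100.3. Tbx15, a factor of the dermis, had 304 and 207 against 13.4 and 1.7 (4.53 ± 0.54), with 438 in fibroblasts and 1.1 in GE neurospheres. The limb and dermal homeobox gene Prrx1 had 222 and 449.9 against 14.6 and 0.7 (4.93 ± 0.83), with 1833 in fibroblasts. Foxd1, named above, had 1095 and 854 against 9.6 and 0.7, but 2.6 in fibroblasts and 4.1 in GE neurospheres. The calls of the first 4 held. Of 26 smooth muscle genes, 6 were called higher and 1 lower (median 0.50, leave-one-out counts 4, 1, 6 and 1 higher and 0, 1, 0 and 1 lower), and in all 6 the fibroblast array was above both adult-derived arrays. Over all 2051 genes called higher, the fibroblast array was above both adult-derived arrays in 840. The shares of smooth muscle genes called were 23.1% higher and 3.85% lower, against 15.0% and 6.41% of all genes. Quantile normalization gave 4 higher and 0 lower, and a common median 4 and 3. The caveolin Cav2 had 221 and 213 against 21.7 and 1.3 (4.09 ± 0.57), with 379 in fibroblasts. Over all 38 fibroblast genes the mean of log2(signal + 5) was 7.08 and 8.53 in adult-derived neurospheres, 6.22 and 4.78 on the pluripotent arrays and 10.66 on the fibroblast array, and the part of carried-over fibroblasts in these differences was not tested.

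Adhesion genes included epithelial ones that the fibroblast array lacked. Of 32 cadherins, integrins and laminins, 11 (34.4%) were called higher, against 15.0% of all genes, and 0 lower (median 0.70, leave-one-out counts 9, 6, 11 and 6, and 8 and 9 under the other scalings). The laminin chain Lama4 had 441 and 926 in adult-derived neurospheres and 2.1 and 1.8 in pluripotent cells (6.54 ± 0.76, adjusted p = 0.00136), with 729 in fibroblasts. The epithelial basement membrane chain Lama3 had 434 and 592 against 17.1 and 11.6 (4.74 ± 0.39, adjusted p = 0.000385), with 1.0 in fibroblasts. Its receptor subunit Itgb4 had 189.9 and 154 against 5.7 and 11.8 (3.71 ± 0.38) and 1.8 in fibroblasts. Both neurosphere arrays were thus above all pluripotent and fibroblast arrays for Lama3 and Itgb4. N-cadherin, Cdh2, had 388 and 442 against 61.2 and 88.4 (2.42 ± 0.31), and T-cadherin, Cdh13, had 215 and 204 against 17.3 and 15.1 (3.34 ± 0.37). E-cadherin, Cdh1, had 529 and 937 against 1792 and 2179 and was not called (-1.48 ± 0.91, adjusted p = 0.277), with 0.4 in fibroblasts and 5.2 in GE neurospheres. With only the 4 arrays in the fit it was called lower (adjusted p = 0.0451). Of 36 keratin, desmosome and epithelial genes, 5 were called higher and 0 lower (leave-one-out counts 5, 4, 4 and 4), a share near that of all genes, and their median of 0.34 was -0.07 with a common median. The desmosomal plakophilin Pkp1 had 312 and 137 against 1.8 and 0.8 (5.08 ± 0.44) and desmoplakin, Dsp, 574 and 299.5 against 43.6 and 44.1 (3.10 ± 0.53), with 1.4 and 5.6 in fibroblasts. Keratin 19, Krt19, had 183 and 266 against 8.1 and 8.8 (4.07 ± 0.57), with 177 in fibroblasts. All calls named here held.

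Hox genes and patterning factors were called higher more often than all genes were, and most members did not pass. Of 31 Hox genes and their Meis and Pbx cofactors, 13 were called higher and 0 lower (median 1.53), with leave-one-out counts of 4, 6, 13 and 6 and counts of 12 and 11 under quantile and common median scaling. Hoxb3 had 186 and 82.6 in adult-derived neurospheres and 5.3 and 4.4 in pluripotent cells (3.72 ± 0.42, adjusted p = 0.00119), with 85.6 in fibroblasts and 5.7 in GE neurospheres. Hoxb2 had 121 and 87.9 against 18.9 and 1.2 (3.15 ± 0.55), with 134 and 7.4. The Hox cofactor Meis2 had 261 and 225 against 18.7 and 14 (3.54 ± 0.35), with 108 and 739. Both Hoxb genes were thus near the fibroblast level and low in GE neurospheres. In 8 of the 13 the fibroblast array was above both adult-derived arrays, and it was under 20 in 0. Of all 2051 genes called higher, 840 and 392 were so. Of 29 forebrain and midbrain-hindbrain patterning factors, 7 were called higher and 1, Gbx2, lower (median 0.59, leave-one-out counts 5, 4, 4 and 5 higher and 1, 0, 1 and 1 lower). The Iroquois gene Irx5 had 231 and 147 against 16.4 and 4.1 (3.76 ± 0.50), with 131 in fibroblasts and 16.6 in GE neurospheres. Irx3 had 154 and 254 against 35.8 and 6.2 (3.25 ± 0.55), with 165 and 11.3. Irx2 had 154 and 105 against 32.3 and 15.6 (2.26 ± 0.40), with 194 and 8.8. Of 16 retinoic acid genes, 5 were called higher and 0 lower (median 1.25, leave-one-out counts 5, 3, 4 and 2). The retinaldehyde dehydrogenase Aldh1a3 had 102 and 147 against 0.7 and 0.9 (4.45 ± 0.59) and the retinoic acid carrier Crabp2 1031 and 1608 against 68.1 and 54 (4.30 ± 0.75), with 11 and 33.9 in fibroblasts. The calls named in these sentences held, apart from that of Gbx2.

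**Figure D4:**
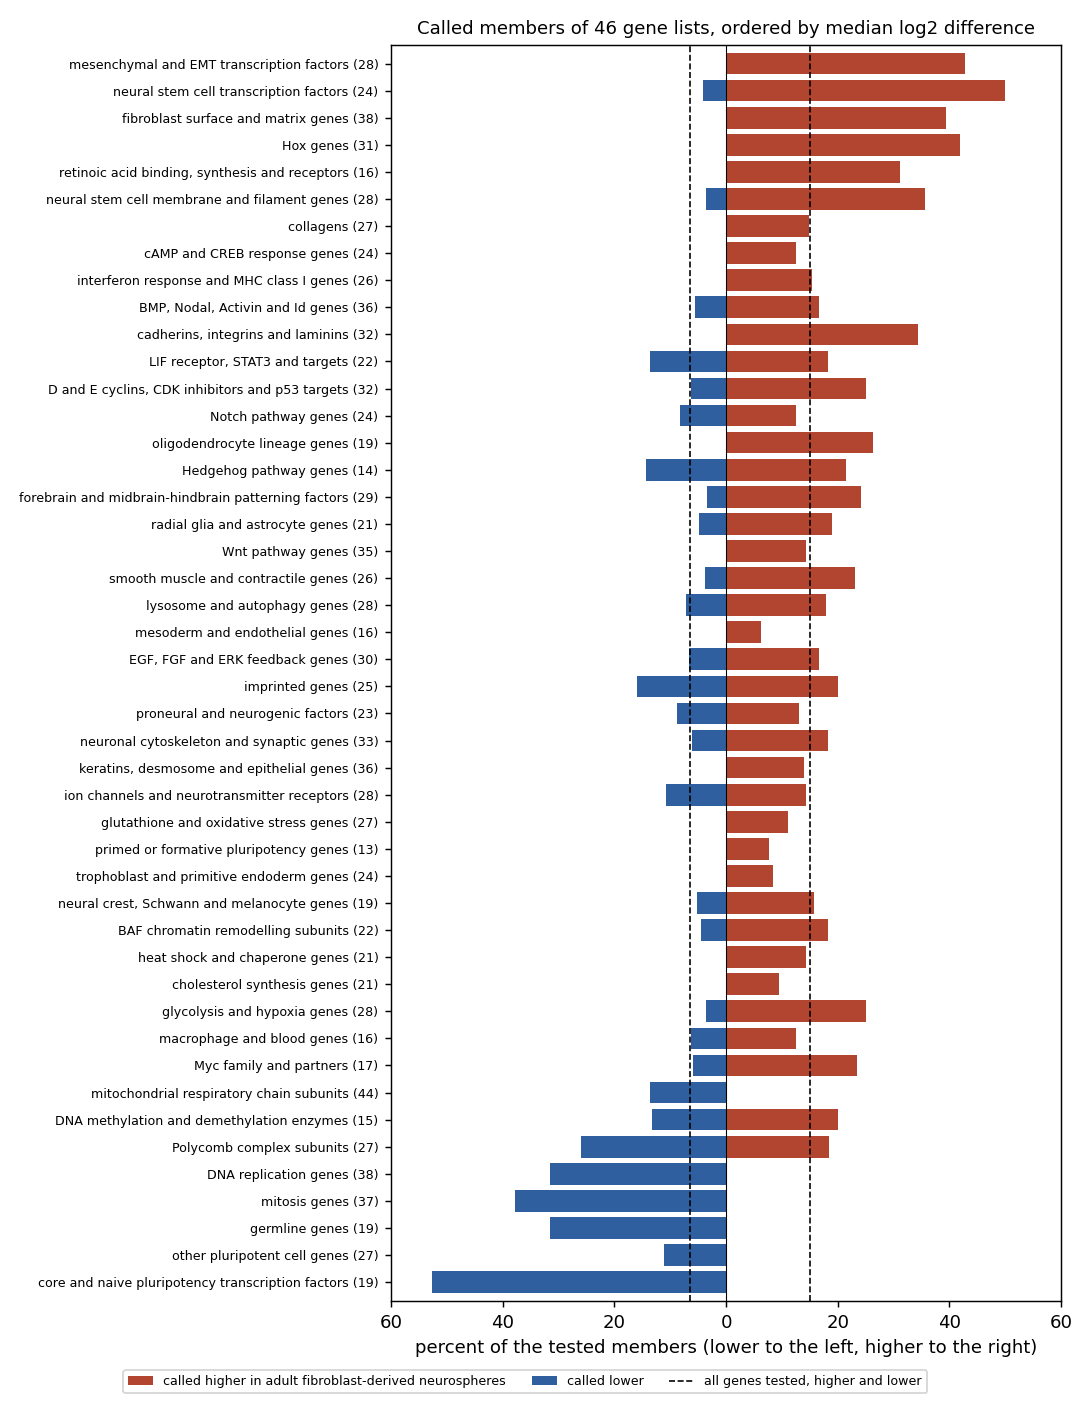
Percent of the tested members of each of 46 gene lists called higher (right) or lower (left) in adult fibroblast-derived neurospheres, ordered by median log2 difference, with the number tested in brackets. Dashed lines mark all genes tested, 15.0% higher and 6.41% lower, and the lists run from mesenchymal factors at the top to pluripotency factors at the bottom.

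Replication and mitosis genes were called lower more often than all genes were, and most members did not pass. Of 38 DNA replication genes, 12 were called lower and 0 higher (median -0.83, 0.97 below that of all genes), and of 37 mitosis genes 14 were called lower and 0 higher (median -0.93, 1.07 below). All 26 were at 20 or more on both adult-derived arrays. The leave-one-out counts were 3, 0, 7 and 3 for replication and 2, 2, 3 and 8 for mitosis. Quantile normalization gave 9 and 7 and a common median 30 and 29, so the counts moved with the scaling, while both medians stayed negative. Some members that were not called changed sign between scalings, such as Rrm1, at 0.10 as deposited and -0.30 with a common median. Mcm3, a subunit of the replicative helicase, had 796 and 760.5 in adult-derived neurospheres and 2551 and 2128 in pluripotent cells (-1.58 ± 0.32, adjusted p = 0.0127), with 127 in fibroblasts. Its call was lost without either adult-derived array (adjusted p of 0.059 and 0.0666). The helicase subunit Mcm5, named for its promoter, had 1334 and 1085 against 3170.0 and 3135 (-1.39 ± 0.30) and lost its call without the LIF array (0.0891) or the ES array (0.0591). The mitotic checkpoint kinase Bub1b had 253 and 183 against 913 and 849 (-2.01 ± 0.31, adjusted p = 0.00396), and topoisomerase II alpha, Top2a, had 1113 and 1109.7 against 2596 and 2443 (-1.18 ± 0.21). Both held. In all 4 genes the adult-derived arrays lay between the pluripotent arrays and the fibroblast array, which was at 38.9 for Bub1b and 269.5 for Top2a.

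Replication genes are classic targets of E2F factors and mitosis genes of complexes at the cell cycle homology region (CHR). The same 250-base windows were searched on both strands for the E2F sequences TTTGGCGC, TTTCGCGC, TTTCCCGC and TTTGCCGC, which can overlap each other on opposite strands, and for the CHR TTTGAA. An E2F sequence was in 3 of 10 replication genes called lower, 5 of 21 not called lower and 3.72% of tested genes (2.16% of the table). The CHR was in 3 of 12 mitosis genes called lower, 8 of 18 not called lower and 12.58% of tested genes (18.25% of the table). The promoter of Mcm5 is shown as an example of overlapping E2F sequences and that of Top2a for a CHR on each strand, with the motifs in capitals.
Mcm5 (chr8:75109259-75109508, plus strand): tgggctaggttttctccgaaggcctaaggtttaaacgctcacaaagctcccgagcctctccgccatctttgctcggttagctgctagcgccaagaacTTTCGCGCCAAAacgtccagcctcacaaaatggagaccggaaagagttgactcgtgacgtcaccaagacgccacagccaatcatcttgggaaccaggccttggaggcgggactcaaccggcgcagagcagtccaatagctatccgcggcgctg
Top2a (chr11:99024190-99024439, minus strand): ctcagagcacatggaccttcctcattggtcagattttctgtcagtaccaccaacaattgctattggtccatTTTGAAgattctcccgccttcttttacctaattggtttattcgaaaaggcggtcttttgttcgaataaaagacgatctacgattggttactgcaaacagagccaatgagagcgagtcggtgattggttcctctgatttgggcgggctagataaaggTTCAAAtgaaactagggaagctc
Members that were not called held the motifs too.

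Of 32 D and E cyclins, CDK inhibitors and p53 targets, 8 were called higher and 2 lower (median 0.67, leave-one-out counts 5, 5, 14 and 5 higher and 0, 1, 1 and 1 lower). The share called higher was larger than the 15.0% of all genes, and the share called lower was near their 6.41%. The lower ones were cyclin E1, Ccne1, named after its values were seen, with 219 and 207 in adult-derived neurospheres and 729.8 and 1269 in pluripotent cells (-2.15 ± 0.49), and the stress gene Gadd45a, with 72.9 and 219 against 526 and 373 (-1.76 ± 0.50). Each passed in 1 leave-one-out fit, Ccne1 without the iPS array (adjusted p of up to 0.0965 in the others) and Gadd45a without the LIF array (up to 0.188). Cyclin D2, Ccnd2, had 2121 and 1848 in adult-derived neurospheres and 133 and 137 in pluripotent cells (3.82 ± 0.23, adjusted p = 0.000128). Its kinase Cdk6 had 1015 and 1041 against 123 and 178 (2.75 ± 0.52) and lost its call without the LIF array (adjusted p = 0.0503). The inhibitors Cdkn1a (p21) and Cdkn2c (p18) had 1622 and 1723 against 506 and 153 (2.56 ± 0.48) and 209 and 103 against 17.5 and 2.1 (3.59 ± 0.53). The retinoblastoma gene Rb1 had 519 and 559.9 against 242 and 148 (1.49 ± 0.25). The adult-derived arrays were above both pluripotent arrays for these 5 genes, and the calls of Ccnd2, Cdkn1a, Cdkn2c and Rb1 held. On the fibroblast array Ccnd2 had 4319, Cdkn1a 1686 and Rb1 153.

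**Figure D5:**
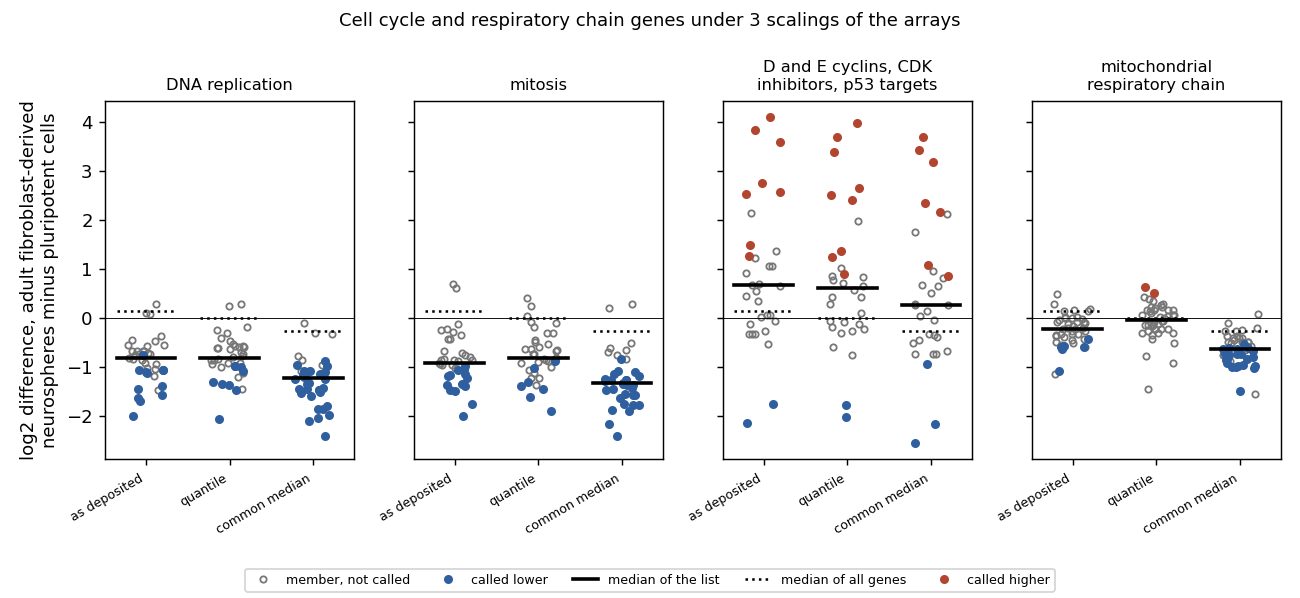
Log2 difference of each tested member of 4 gene lists (vertical axis) with signals as deposited, after quantile normalization and after setting a common median. Replication and mitosis medians stay below the median of all genes in each scaling, and respiratory chain members are called lower as deposited (6), higher after quantile normalization (2) and lower with a common median (22).

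Mycn gave opposite values on different probe sets. The probe set that stands for the gene had 6645 and 5809 in adult-derived neurospheres and 86.7 and 8.5 in pluripotent cells (7.47 ± 1.14, adjusted p = 0.00393). A 2nd had 141 and 450.6 against 1420 and 2122 (-2.75 ± 0.52, adjusted p = 0.00859), and a 3rd had 12.1 and 57.9 against 95.7 and 155 (-1.95 ± 0.57, adjusted p = 0.0425), the last 2 from the fit of every probe set. One probe set was thus high in the neurospheres alone and the other 2 in the pluripotent cells, and the mean of the probe sets was not called. Myc had 281 and 261 against 45.6 and 276 and was not called (1.21 ± 0.66), the iPS array being lowest, and the difference was -0.029 without the iPS array and 2.45 without the ES array, where it was called (adjusted p = 0.00958). The MAX partner Mxd4, which antagonises Myc, had 376 and 395 against 14.6 and 19.4 (4.16 ± 0.27, adjusted p = 0.000162) and held. Of 17 Myc family genes and partners, 4 were called higher and 1 lower (leave-one-out counts 2, 2, 4 and 4 higher and 0, 0, 0 and 1 lower), and their median was -0.08, 0.09 after quantile normalization and -0.48 with a common median. The shares called higher and lower were 23.5% and 5.88%, against 15.0% and 6.41% of all genes.

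In the lists of growth factor pathways 12.5% to 21.4% of members were called higher, near the 15.0% of all genes, with medians from 0.44 for EGF, FGF and ERK feedback genes to 0.87 for cAMP response genes. Shares called lower were 13.6% for LIF and STAT3 genes and 14.3% for Hedgehog genes, against 6.41% of all genes. In the other pathway lists they were 0% to 6.67%. Of 22 LIF and STAT3 genes, 4 were called higher and 3 lower (leave-one-out counts 5, 3, 6 and 3 higher and 1, 1, 2 and 1 lower), Klf4 among the lower ones. Osmr, the oncostatin M receptor, had 303 and 935 in adult-derived neurospheres and 27.5 and 3.9 in pluripotent cells (4.98 ± 0.72, adjusted p = 0.00336), the acute phase factor Cebpd had 357 and 967 against 52.8 and 29.8 (3.73 ± 0.45) and the kinase Jak2 148 and 96.7 against 29.5 and 17.8 (2.15 ± 0.30). Osmr and Cebpd were higher on the LIF array than on the EGF and cAMP array, and Jak2 was not. Of 30 EGF, FGF and ERK feedback genes, 5 were called higher and 2 lower (leave-one-out counts 3, 3, 6 and 2 higher and 1, 1, 1 and 2 lower). Besides Egfr, the ERK target Phlda1 had 466 and 434 against 67 and 27.8 (3.23 ± 0.45), while the ligand Fgf17 had 10.9 and 0.9 against 65.4 and 157 (-3.46 ± 0.61). Of 24 cAMP response genes, 3 were called higher and 0 lower (leave-one-out counts 3, 1, 2 and 1 higher and 0, 0, 0 and 3 lower). The G protein regulator Rgs2 had 144 and 94.2 against 22 and 8.6 (2.67 ± 0.38), with the cAMP array the higher one. Of 36 BMP, Nodal and TGF beta genes, 6 were called higher and 2 lower (leave-one-out counts 3, 3, 9 and 3 higher and 0, 0, 0 and 1 lower). The TGF beta receptor Tgfbr2 had 789 and 1377 against 28 and 8.4 (5.64 ± 0.61, adjusted p = 0.00106), with 2619 in fibroblasts, and the latency protein Ltbp1 had 362 and 579 against 16 and 37.8 (3.95 ± 0.60). Of 35 Wnt genes, 5 were called higher and 0 lower (leave-one-out counts 3, 2, 4 and 2 higher and 0, 0, 1 and 1 lower), among them the receptor Fzd3 (2.18 ± 0.36) and the nuclear effector Tcf7l2 (1.90 ± 0.33). Of 14 Hedgehog genes, 3 were called higher and 2 lower (leave-one-out counts 0, 0, 4 and 0 higher and 1, 1, 2 and 1 lower), and 1 and 3 under both other scalings. The Hedgehog effector Gli2 had 66.4 and 109.7 against 532 and 527 (-2.56 ± 0.42, adjusted p = 0.00526). All calls first named for these pathways held, while that of Fzd3 was lost with the mean of its probe sets.

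Of 25 imprinted genes, expressed mainly from 1 parental allele, 5 were called higher, 4 lower and 16 were not called (median 0.40, and -0.00 with a common median), with leave-one-out counts of 3, 2, 6 and 2 higher and 3, 3, 4 and 3 lower. The share called higher was near the 15.0% of all genes, and the share called lower was larger than their 6.41%. The maternally expressed noncoding RNA Meg3 had 75.9 and 123 in adult-derived neurospheres and 1517 and 1225 in pluripotent cells (-3.75 ± 0.41, adjusted p = 0.00106). Its neighbours on the same transcript cluster, Rian and Mirg, had 50.9 and 131 against 644 and 1078 (-3.26 ± 0.57) and 4.0 and 9.2 against 100.4 and 186 (-3.65 ± 0.42). The 3 RNAs were lower on both adult-derived arrays than on both pluripotent arrays and on the fibroblast array, which had 3254, 2516 and 71.3. Peg12 and Ndn, paternally expressed genes of the Prader-Willi region, were higher, with 127 and 59.9 against 9.4 and 7.3 (2.80 ± 0.40) and 436 and 309 against 118 and 84.5 (1.83 ± 0.27). All 5 calls held under leave-one-out. Xist, the RNA that coats the inactive X chromosome of female cells, had 2342 and 2111 against 41.5 and 50.7 (5.45 ± 0.21, adjusted p = 2.38e-05) and held. The Y-linked gene Eif2s3y, named after its values were seen, had 1.4 and 0.5 against 4.4 and 666 and was not called, although it was with line as a term (adjusted p = 0.000607), with 0.3 in fibroblasts. Of these 5 arrays the ES array alone was bright for it, so on that array cell sex and cell type cannot be told apart for Xist. The iPS array was dim for Eif2s3y, like the neurospheres, and low in Xist, unlike them. The labels state no cell sex, and its part in the Xist difference was not tested.

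Metabolic, stress and channel genes made up the remaining lists. Shares called higher ran from 9.52% (cholesterol synthesis) to 17.9% (lysosome and autophagy), near or below the 15.0% of all genes. The exceptions were respiratory chain subunits, with 0 higher, and glycolysis and hypoxia genes, with a larger share than all genes. Respiratory chain subunits were called lower at 13.6% and ion channel and receptor genes at 10.7%, against 6.41% of all genes. Of 44 respiratory chain subunits, 6 were called lower and 0 higher (median -0.23, leave-one-out counts 1, 0, 0 and 0), but 0 lower and 2 higher after quantile normalization and 22 lower with a common median. Of 28 glycolysis and hypoxia genes, 7 were called higher and 1 lower (median -0.04, leave-one-out counts 4, 1, 4 and 2 higher and 0, 0, 1 and 1 lower), but 3 and 1 after quantile normalization and 4 and 3 with a common median. Of 27 glutathione genes, 3 were called higher (leave-one-out counts 3, 2, 3 and 2): the microsomal transferase Mgst1 had 3796 and 2817 in adult-derived neurospheres and 120.4 and 43.3 in pluripotent cells (5.40 ± 0.60, adjusted p = 0.00111), and Gstp1 had 2904 and 2754 against 1202 and 1413 (1.11 ± 0.16). Of 21 heat shock genes, 3 were called higher (leave-one-out counts 2, 2, 3 and 2). The small chaperone Cryab had 3894 and 1231 against 27.8 and 15.4 (6.41 ± 0.58, adjusted p = 0.000593), with 2489 in fibroblasts. Of 28 lysosome and autophagy genes, 5 were called higher and 2 lower (leave-one-out counts 6, 2, 11 and 2 higher and 0, 1, 1 and 2 lower). The lysosomal membrane protein Lamp2 had 1091 and 1061 against 394 and 248 (1.77 ± 0.28) and Gabarap, of the autophagosome, 969 and 1108 against 538 and 417 (1.12 ± 0.19). Of 26 interferon and MHC class I genes, 4 were called higher and 0 lower (leave-one-out counts 3, 2, 4 and 2). The antiviral protein Rsad2 had 83.9 and 94.1 against 10 and 7.5 (2.78 ± 0.46). Of 28 ion channel and receptor genes, 4 were called higher and 3 lower (leave-one-out counts 3, 4, 4 and 3 higher and 0, 1, 1 and 1 lower). Besides Ano1, the potassium channel Kcnn4 had 190.5 and 82.4 against 2.6 and 1.7 (4.20 ± 0.63) and the glutamate receptor Gria3 74.5 and 63 against 4.2 and 0.8 (3.33 ± 0.36). Of 21 cholesterol synthesis genes, 2 were called higher and 0 lower (leave-one-out counts 0, 0, 4 and 0). The calls of genes named in this paragraph held. With a common median the medians of the BAF (0.15), proneural (0.35), neural crest (0.19), trophoblast (0.20), glutathione (0.27), heat shock (0.11), ion channel (0.29) and cholesterol (0.09) lists were -0.26, -0.06, -0.21, -0.20, -0.13, -0.29, -0.11 and -0.31.

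Markers of other cell types were called higher no more often than all genes were. Of 24 trophoblast and primitive endoderm genes, 2 were called higher and 0 lower (leave-one-out counts 2, 1, 5 and 1). Gata3, a trophoblast factor, had 19.9 and 49.5 in adult-derived neurospheres and 0.6 and 0.6 in pluripotent cells (2.72 ± 0.46) and held. Of 16 mesoderm and endothelial genes, 1 was called higher and 0 lower (leave-one-out counts 0, 2, 0 and 1). This was the receptor kinase Tek (Tie2), with 243 and 249 against 20 and 72.1 (2.51 ± 0.56), which passed in the fit without the ES array alone (adjusted p of up to 0.0801 in the others). Of 16 macrophage and blood genes, 2 were called higher and 1 lower (leave-one-out counts 0, 1, 2 and 0 higher and 0 lower in each). The leukocyte phosphatase Ptprc (CD45) had 90.6 and 40.2 against 3.4 and 3.2 (2.99 ± 0.66), and lost its call without the EGF and cAMP array (0.0962) or the ES array (0.0681). Cd68, a lysosomal protein of macrophages, had 25.2 and 41.4 against 97.6 and 75 (-1.28 ± 0.36), and passed in none of the leave-one-out fits (adjusted p of 0.0629 to 0.19).

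The 2 adult-derived arrays differed from each other in ways that the comparison with pluripotent cells averages over. These differences between 1 array and 1 array have no test. Over all genes the EGF and cAMP array minus the LIF array had a median of -0.01, with 389 genes above 1 and 1085 below -1. Among the 875 lower genes, 4 were above 1 and 71 below -1. Among called genes at 100 or more on 1 of the arrays, Igf2bp1, an RNA-binding protein, had 12 and 302 in adult-derived neurospheres and 889 and 1226 in pluripotent cells, and the aspartoacylase Aspa had 46.9 and 788 against 14.1 and 8.3. Sox2, Defb1 and Mndal were the other 3 of the 5 lowest by this difference. For Igf2bp1 and Sox2 the LIF array was the nearer to the pluripotent cells. Tgfb2, a TGF beta ligand, had 272 and 39.7 against 10.2 and 3.1, and Nat8f3 had 323 and 59.5 against 0.1 and 1.5. These 2, with Pi16, Myh2 and Fndc3c1, were the 5 highest. The calls of 9 of these 10 genes against pluripotent cells passed in 1 to 3 of the leave-one-out fits, and that of Nat8f3 held. The lines of the other side differed too: 1666 genes were above 1 and 742 below -1 on the iPS array minus the ES array.

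The adult fibroblast-derived neurospheres were also set against those from embryonic fibroblasts, grown in the same MHM medium but with other additions. These were EGF and cAMP or LIF for the adult-derived arrays, and LIF or LIF and cAMP for the embryonic-derived arrays. Fibroblast source and additions therefore cannot be told apart in this comparison. Of 13650 genes, 64 (0.469%) were called, 9 (0.0659%) higher and 55 (0.403%) lower in the adult-derived pair. Leaving out 1 array gave 13, 49, 10 and 11 calls without the adult-derived EGF and cAMP, adult-derived LIF, embryonic-derived LIF and embryonic-derived LIF and cAMP array. Cdh2 was higher in the adult-derived pair, at 388 and 442 in adult-derived and 129.9 and 66.2 in embryonic-derived neurospheres (2.10 ± 0.31, adjusted p = 0.0361). Hoxb3 was higher too, at 186 and 82.6 against 13.2 and 21.9 (2.55 ± 0.42, adjusted p = 0.0497), and Cd68 lower, at 25.2 and 41.4 against 150.1 and 205 (-2.27 ± 0.36, adjusted p = 0.0475). The calls of Cdh2 and Hoxb3 were lost with a pseudocount of 1, a filter at 100 or only the groups compared. In these settings 0 genes were called higher. Both calls were also lost when the embryonic-derived LIF and cAMP array was left out. For Zfp42 the embryonic-derived arrays had 346 and 476, for Nanog 1454 and 1845 and for Sox2 1826 and 2092, all above both adult-derived arrays, and for Pou5f1 2218 and 1981. None of these 4 factors was called between the adult- and embryonic-derived pairs (differences of -3.81 ± 1.79, -2.73 ± 1.79, -2.87 ± 0.78 and -0.12 ± 1.66).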

How the data were processed

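RNA was extracted with Trizol and hybridised as biotin-labelled cRNA to Affymetrix arrays, per the labels' protocols. The deposited values are MAS5 signals, an intensity on a linear scale. The submitters' processing notes name MAS5 and, as software, Affymetrix Expression Console 1.1. In the deposited table the trimmed mean (2% off each end) was 100 on each of the 12 arrays. Of 45101 probe sets, 64 were controls, 34945 had 1 gene symbol in the platform annotation, 932 several and 9160 none. The log2 scale was computed here from the deposited signals after adding 5. A probe set was kept at a signal of 20 or more on at least 1 array, and the brightest of a gene's probe sets stood for it (13650 genes, 6401 with several).

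All 7 groups were fitted with limma 3.58.1 in R 4.3.3 (lmFit, eBayes with a trend, 5 residual and 3.63 prior degrees of freedom). P-values were adjusted by Benjamini-Hochberg over all genes, with a call under 0.05. The script was tested on simulated data. With 2 arrays a side, their number limits the precision.

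The members and the 46 gene lists were chosen with earlier results of these data known. Named were the 10 highest and 10 lowest calls without overlap, up to 5 called and 2 not called genes of each list, a set of cell identity markers, genes whose probe sets were called in opposite directions, and the 5 highest and 5 lowest differences between the adult-derived arrays. Not all of them are printed. Alternatives were other scalings, pseudocounts, filters, probe set rules, limma settings and samples, and leaving out each array. Promoter sequences are RefSeq's (GRCm38.p6). With no coordinates from the authors, these were used for sequence alone.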

Additional observations from a re-analysis of the deposited data

Results flagged for a closer look

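In 3 genes called in the comparison with pluripotent cells, the test of the difference between adult- and embryonic-derived neurospheres itself also passed in the limma fit. Cdh2 was higher in the adult-derived pair by 2.10 on the log2 scale (adjusted p = 0.0361), with signals of 388.0 and 442.5 in adult-derived and 129.9 and 66.2 in embryonic-derived neurospheres. Hoxb3 was higher by 2.55 (adjusted p = 0.0497), with 185.8 and 82.6 in adult-derived and 13.2 and 21.9 in embryonic-derived neurospheres. Cd68 had a difference of -2.27 (adjusted p = 0.0475), with 25.2 and 41.4 in adult-derived and 150.1 and 204.8 in embryonic-derived neurospheres. With a pseudocount of 1, a filter at 100 or only the groups compared, 0 genes were called higher in the adult-derived pair. The calls of Cdh2 and Hoxb3 were thus lost under these settings. They were also lost when the embryonic-derived LIF and cAMP array was left out. In none of the 3 genes did the pairs overlap, which adds no support to a call with 2 arrays a side.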

How the results depend on the processing

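For adult-derived neurospheres minus pluripotent cells, the 2926 calls became 4671 when every probe set was tested on its own (24568 tests) and 1343 with only the 4 arrays compared (2 residual degrees of freedom). Leaving out 1 array gave 1256 to 2946 calls. Of 138 called genes named in the text, 98 kept their call in all 4 such fits, and 1 changed sign under any of the 15 alternatives run: Dnmt3a, at 0.96, was -0.52 with the mean of its probe sets. Apart from that, calls were lost for 2 of them after quantile normalization, 2 with a common median, 5 with a pseudocount of 1, 7 with 20, 5 with the mean of probe sets and 19 with only the 4 arrays. Among genes not called, 3 changed sign: without 1 array the difference ranged from -0.64 to 1.54 for Thy1 and from -0.086 to 4.94 for Col1a2 (lowest without the LIF array), and from -0.029 to 2.45 for Myc (lowest without the iPS array). For adult- minus embryonic-derived neurospheres, the 64 calls became 42 after quantile normalization, 10 and 139 with pseudocounts of 1 and 20, 10 with a filter at 100, 29 with line as a term and 15 with only the groups compared, and 10 to 49 without 1 array. The cause was not tested. No paired analysis was possible because the replicate numbers name samples within a group, and nothing in the labels ties a neurosphere array to a pluripotent one. Dim genes are limited by the signal over background, and 746 of the 2051 higher genes were under 20 on both pluripotent arrays.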
